A study of Homo sapiens with 8 samples.

Results

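Celastrol given alone was compared with its vehicle in human skin fibroblasts after 6 h. The members are the 4 libraries without TGFB1 out of 8 in the series, 2 from cells given celastrol at 500 nM and 2 from cells given vehicle, and they were chosen by these labels. The cells were CCD-1077Sk, fibroblasts of normal human skin, so all values come from 1 line, used after passage 8. Control cells received BSA, citric acid and DMSO, and the celastrol cells received BSA, citric acid and celastrol. The other 4 libraries, TGFB with DMSO and TGFB with celastrol at 500 nM, 2 of each, served to estimate the spread and to show where a difference depended on TGFB1. The study asks how celastrol acts on fibroblasts stimulated with TGFB1, the main profibrotic cytokine, and the comparison without TGFB1 shows what the compound does on its own.

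Celastrol is a quinone methide triterpenoid from the thunder god vine, known for activating the heat shock response. In that response, heat shock factor 1 (HSF1) is held inactive by chaperones until unfolded or damaged proteins draw them away, and it then binds heat shock elements in the promoters of chaperone genes. Reactive compounds can also release NRF2, which binds antioxidant response elements, and stress kinases that phosphorylate eIF2α favour translation of ATF4, which binds CEBP-ATF elements. Immediate early genes such as FOS and EGR1 are transcribed within minutes of many stimuli without new protein synthesis.

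Values are normalized reads, which are reads per gene divided by a factor per library, not corrected for gene length, so levels of different genes are not compared. Depth was between 20716707 and 42518358 estimated reads per library. Whether the 2 libraries of a group are separate cultures is not stated in the labels; the p-values therefore rest on a spread between libraries that may be technical. Among the 13503 genes with a mean of at least 50 normalized reads in both groups, the median absolute log2 difference between the 2 libraries of a group was 0.0887 in control and 0.105 with celastrol. The fibroblast label held for the markers tested. Of 16 fibroblast markers 15 were tested, and the remaining marker was listed but too low to be tested. Of the 15, 2 were called higher and 0 lower (2 lower with a common total and 6 with median centring). No value of these 15 in the 4 libraries was under that of TWIST2 in control, 1323. Most markers of other cell types of skin were at low levels, and in part they rose with celastrol. Among those tested, 0 endothelial, 0 nerve and fat, 1 melanocyte, 1 immune and 2 keratinocyte markers had a mean of at least 50 in both groups. The keratinocyte markers listed summed to 5628 and 5185 normalized reads in control and 5735 and 5620 with celastrol. The 2 at 50 or more were not called. Melanocyte markers summed to 1034 and 1077 in control and 1323 and 1381 with celastrol. Of all 9363 genes tested with a mean under 50 in 1 or both groups, 4902 were called higher and 880 lower. A gene at 0 in control is listed because it was detected elsewhere, so the direction of its change is fixed by the selection. Endothelial markers, 4 of 5 higher, took 0.000249% and 0.000386% of normalized reads in control and 0.00148% and 0.00156% with celastrol, with CDH5, CLDN5 and TIE1 not analysed here. Of 5 immune markers 3 were higher (CSF1R at 6.25 and 7.2 and 203 and 190.1), of 4 melanocyte markers 3 (MLANA listed at 0 in both control libraries and at 124 and 84.8 with celastrol), of 5 nerve and fat markers 3, and of 4 keratinocyte markers 1 was higher and 1 lower. Without control replicate 2 all 5 immune markers were higher, and without either celastrol library 1 of the nerve and fat markers. The part of other cells in the results below was not tested. Fewer cells and less RNA per cell cannot be told apart in these libraries.

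Celastrol changed much of the transcriptome in 6 h. A change is a log2 fold change on the log2(value + 1) scale, celastrol minus control, called at a limma p-value under 0.05 after Benjamini-Hochberg adjustment over all genes tested. Of 22866 genes tested, 12605 were called (55.1%), 7737 higher (33.8%) and 4868 lower (21.3%). The counts of every gene list below are to be read beside these shares. Genes with a mean of at least 50 in both groups gave 6823 calls of 13503 (50.5%), and there falls outnumbered rises, 3988 (29.5%) to 2835 (21.0%). Rises were the larger changes: 889 of these genes rose at least 2-fold against 390 that fell as much, 210 against 33 at 4-fold, and 47 against 4 at 8-fold. The balance of calls depended on the scaling: 61.4% of all calls were higher, and 54.6%, 47.5% and 69.2% with a common total, median centring and centring on well-expressed genes. For genes at 50 or more these shares were 41.6%, then 32.4%, 24.4% and 53.4%. Median centring moved the median log2 fold change of all genes tested from 0.08 to -0.09, and that of the genes at 50 or more from -0.08 to -0.25.

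**Figure D1:**
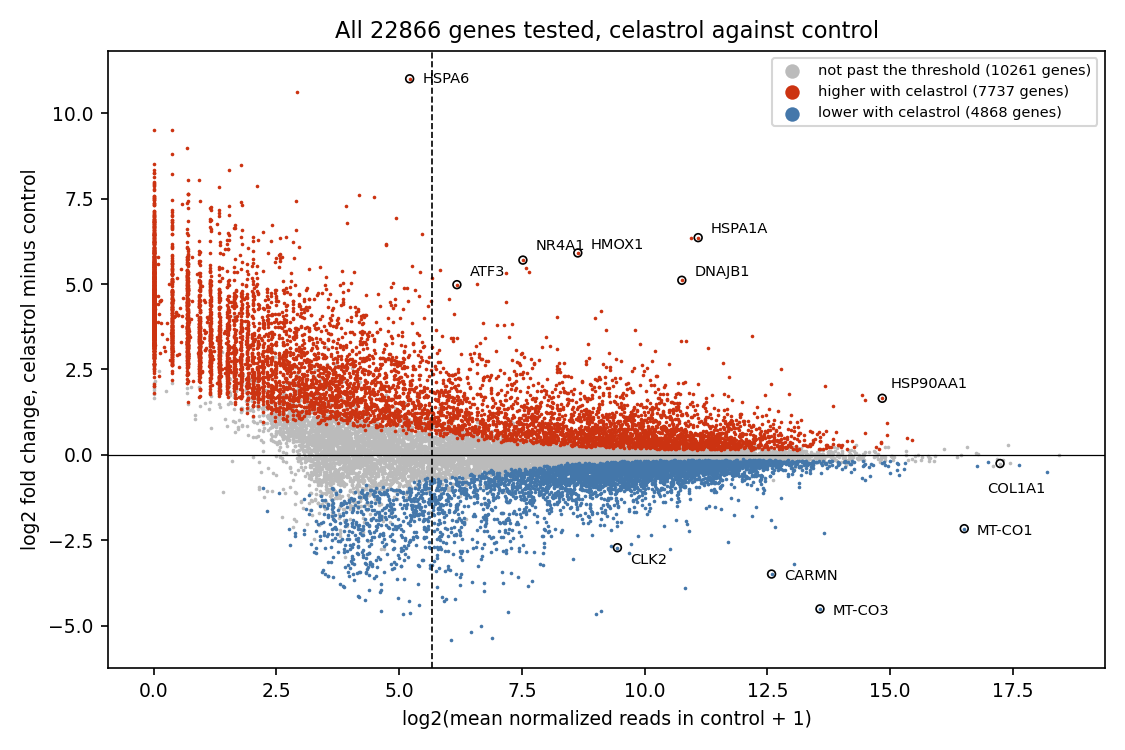
Log2 fold change with celastrol (vertical axis) against the mean level in control (horizontal axis, log2 of normalized reads + 1) for the 22866 genes tested, each point a gene. Red points are the 7737 genes called higher and blue points the 4868 called lower; the dashed line marks 50 normalized reads, left of which rises of low genes dominate.

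The largest rises among genes at 50 or more in both groups were in HSPA1A, HSPA1B, HMOX1, NR4A1, DNAJA4, SIK1B, HSPA4L, GEM, DNAJB1, RGS2, ATF3, GSTO2, CDRT1, EGR1 and TRIB1, between 6.36 and 4.02 on the log2 scale. By known role, 5 of these 15 are chaperones or co-chaperones of the HSP70 system and 3 are immediate early or stress transcription factors (NR4A1, EGR1 and ATF3). SIK1B is a kinase gene with a near-identical copy, SIK1, so its reads are uncertain. The largest falls were in MT-CO3, MT-ND6, the noncoding RNA CARMN, MT-ATP6, CLK2, MT-ND4L, the histone gene H4C9, MT-ND4, ATG16L2, MT-ND3, MT-CO1, MT-CYB, the histone gene H1-3, PILRB and NAIP, between -4.51 and -2.06. Of those 15 falls, 8 were transcripts of the mitochondrial genome. Per the GENCODE annotation, exons of HSPA1B, NR4A1, DNAJA4, HSPA4L, DNAJB1, CDRT1, CARMN, ATG16L2 and PILRB overlap other genes, as do those of MT-ATP6 with MT-CO3 and MT-ND4 with MT-ND4L; the strand setting of the counting is unknown here, so reads of such pairs could be exchanged.

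HSP70 and HSP110 chaperones bind unfolded stretches of proteins and release them on ATP hydrolysis and nucleotide exchange. Of 14 measured members, 10 rose and 1 fell (3 with median centring), with a median log2 fold change of 1.20 beside 0.08 over all genes tested. HSPA1A (chromosome 6, 31815543 to 31817946, plus strand, hg38), the main inducible HSP70 gene, was at 2149.9 and 2210.2 in the control libraries and 158326 and 202959 with celastrol (log2 fold change 6.36, SE 0.11, adjusted p = 1.69e-08). HSPA1B, a near-identical copy beside it on the chromosome, was at 1817 and 2125 in the control libraries and 144144 and 176714 with celastrol, a rise of 6.34, and reads may have been assigned to either copy. Both celastrol libraries lay far above both control libraries for each gene, and the celastrol libraries differed more from each other than the controls did.

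HSPA6, a strictly inducible HSP70 of primates, was low without treatment, at 31.5 and 40.8, and reached 67563 and 85624 with celastrol; it has a close copy, HSPA7, so its reads are uncertain. HSPH1, an HSP110 that serves as nucleotide exchange factor, rose from 4779 and 4543 to 50902 and 52854 (log2 fold change 3.48, SE 0.07, adjusted p = 2.57e-08). HSPA4L, its relative, rose from 234 and 164 to 7618 and 8463. HSPA9, the mitochondrial HSP70, and HSPA4 rose less, by 1.28 and 1.11. HSPA8, the constitutive cytosolic HSP70, rose by 0.50 from 40828 and 42244 to 57762 and 59979.7. The 1 fall was that of HYOU1, the HSP110-like chaperone of the endoplasmic reticulum, by 0.21; it was not called without control replicate 1 (-0.14), without celastrol replicate 1 (-0.25) or 2 (-0.17), without either TGFB with celastrol library, with a pseudocount of 0.5, without a variance trend or with centring on well-expressed genes. Together the 14 genes took 0.292% and 0.296% of normalized reads in the control libraries and 1.96% and 2.30% with celastrol.

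**Figure D2:**
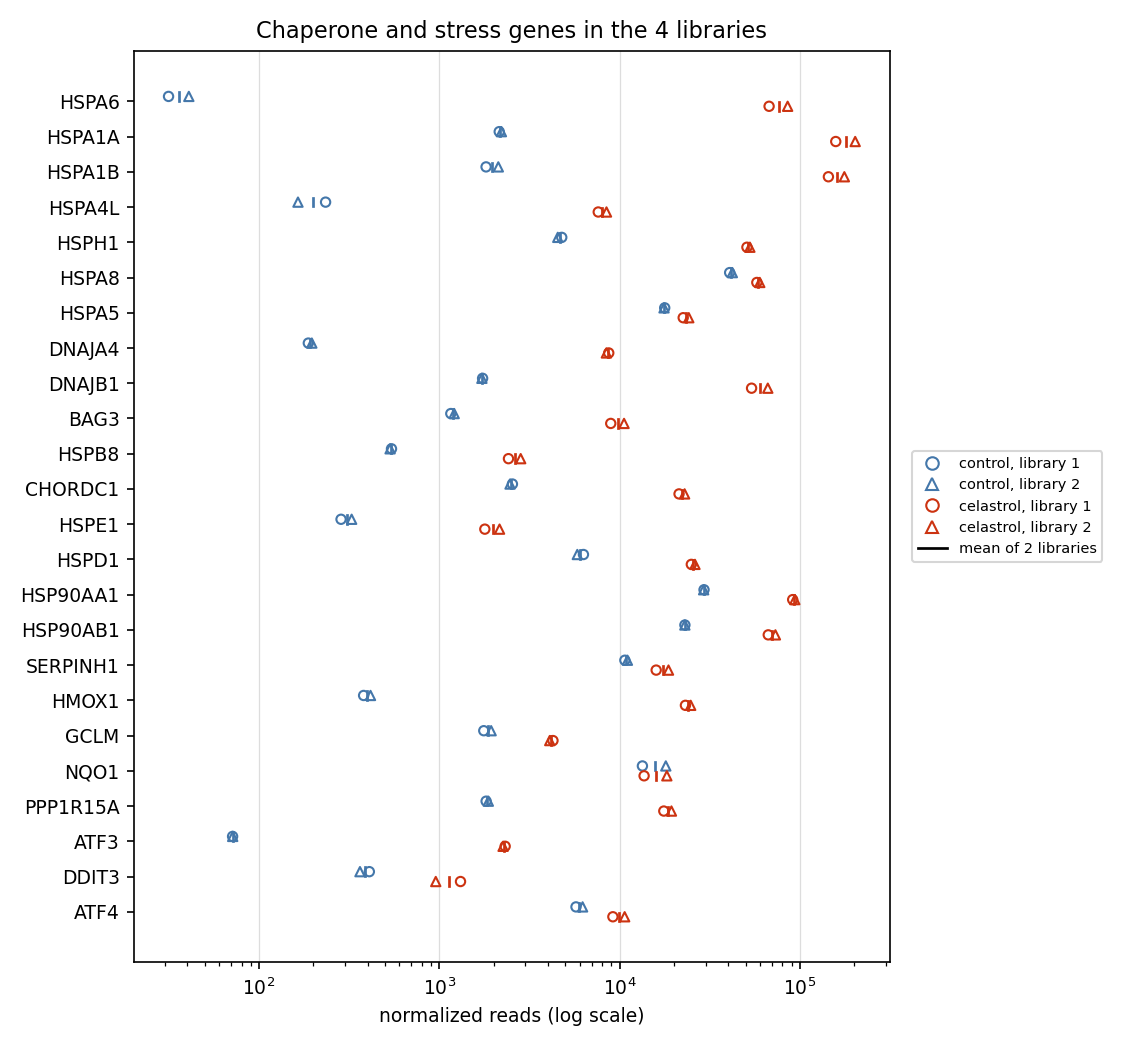
Normalized reads (log scale) of 24 chaperone and stress genes in each of the 4 libraries, control in blue and celastrol in red, with circles for library 1, triangles for library 2 and a bar at the mean of 2 libraries. All genes but NQO1 show celastrol libraries above both controls, from HSPA6 with the widest gap to HSPA5 and HSPA8 with narrow ones.

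DNAJ proteins deliver clients to HSP70 and stimulate its ATPase. Of 38 members 12 rose and 11 fell, where 33.8% of all genes tested were higher and 21.3% lower. Their median was 0.03 (-0.05 with a common total, -0.14 and 17 falls with median centring, -0.02 with a stricter filter on low values, and just under 0 without control or celastrol replicate 2). The largest rises exceeded the largest falls. DNAJB1, the stress-inducible partner of HSPA1A, was at 1738 and 1723 in the control libraries and 54014 and 66458 with celastrol (log2 fold change 5.11, SE 0.09, adjusted p = 1.69e-08). DNAJA4 rose from 188 and 196 to 8711 and 8452, and DNAJB4, DNAJA1 and DNAJB6 rose by 1.74, 1.62 and 1.54. DNAJC17 fell by 0.79 from 223 and 244 to 145 and 124, DNAJC5 by 0.43 and DNAJC10, a reductase of the endoplasmic reticulum, by 0.35. Among small heat shock proteins and BAG co-chaperones, 5 of 14 rose and 2 fell, beside the same 33.8% and 21.3% of all genes tested. BAG3, which links HSP70 to selective autophagy, was at 1158 and 1209 in the control libraries and 8936 and 10591 with celastrol (log2 fold change 3.04, SE 0.09, adjusted p = 1.61e-07), and its partner HSPB8 rose by 2.28, CRYAB by 1.67 and HSPB1 by 1.46.

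Of 24 HSP90, chaperonin and co-chaperone genes, 15 rose and 2 fell, with a median of 0.77 that stayed between 0.60 and 0.85 under the 3 other scalings, though 6 fell with a common total and 8 with median centring. CHORDC1, an HSP90 co-chaperone, had the largest rise, from 2544 and 2469 to 21386 and 22958 (log2 fold change 3.14, SE 0.06, adjusted p = 1.69e-08). HSP90AA1, the inducible cytosolic HSP90, was at 29421 and 29279 in the control libraries and 91338 and 93837 with celastrol, and its paralog HSP90AB1 at 23043 and 23034 in the control libraries and 66848 and 73237 with celastrol; the libraries of a group lay close together and the groups far apart. The mitochondrial chaperonin pair HSPD1 and HSPE1, which share 1 bidirectional promoter, rose by 2.08 and 2.68, as did the co-chaperones CACYBP (2.46), FKBP4 (2.32), AHSA1 (1.85) and STIP1 (1.74). Exons of HSPD1 and HSPE1 overlap per the GENCODE annotation, so reads of this pair could be exchanged. The cytosolic chaperonin CCT, which folds actin and tubulin, did not move as a unit: TCP1 rose by 1.39, CCT4 by 0.71, CCT2 by 0.54 and CCT3 by 0.36, while of the other 4 subunits measured 1 was called lower and 3 did not pass. STUB1 (CHIP), the ubiquitin ligase that acts with HSP70 and HSP90, fell by 0.37. HSF1 itself was at 1028 and 1098 in control and 866 and 953 with celastrol (-0.22, adjusted p = 0.0659); it was called lower with a common total (-0.30), with median centring (-0.40) and without either TGFB library. Its mRNA says nothing of the activity of the protein, which is set after translation.

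Promoter sequences show what some of the rising chaperone genes share. RefSeq promoter windows of GRCh38.p14, from 250 bases before to 50 after a start, were available for 12721 of the genes tested, in 18263 windows, and were searched on both strands. The 3-unit heat shock element GAANNTTCNNGAA was found in 0.394% of windows and 70 genes, and the 2-unit form TTCNNGAA or GAANNTTC, which every 3-unit element contains, in 10.8% of windows and 1795 genes. Among chaperone genes that rose, the 3-unit element was found in 2 of 10 HSP70 and HSP110 genes, 2 of 11 DNAJ genes and 4 of 13 HSP90, chaperonin and co-chaperone genes, and the 2-unit form in 7, 6 and 8 of them. The 4 small heat shock protein and BAG genes that rose and had a window held no 3-unit element and 3 of them the 2-unit form, and the 5 such genes of the endoplasmic reticulum list held neither. The following bases, ending 1 base before the annotated start, are shown 5′ to 3′ on the gene's strand for genes with large rises or, for SERPINH1, a rise in a gene of another list; capitals mark the 3-unit element in CHORDC1, where 3 overlap, in HSP90AA1 and in SERPINH1, and the 2-unit form in HSPA1A and DNAJB1. A match is a description of the letters and not a measured binding site.
HSPA1A (chr6:31815393-31815542, plus strand): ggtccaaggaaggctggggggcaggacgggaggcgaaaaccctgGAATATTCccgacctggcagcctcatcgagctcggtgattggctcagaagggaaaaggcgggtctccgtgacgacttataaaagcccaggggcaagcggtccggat
DNAJB1 (chr19:14518398-14518517, minus strand): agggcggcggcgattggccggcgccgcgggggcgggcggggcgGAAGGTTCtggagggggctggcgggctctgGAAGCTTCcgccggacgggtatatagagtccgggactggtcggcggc
CHORDC1 (chr11:90223050-90223169, minus strand): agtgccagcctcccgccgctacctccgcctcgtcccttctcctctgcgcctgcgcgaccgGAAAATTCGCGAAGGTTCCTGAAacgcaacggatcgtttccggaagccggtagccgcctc
HSP90AA1 (chr14:102087045-102087164, minus strand): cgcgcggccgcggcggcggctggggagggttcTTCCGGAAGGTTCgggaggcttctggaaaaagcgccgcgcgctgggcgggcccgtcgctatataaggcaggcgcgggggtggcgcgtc
SERPINH1 (chr11:75562133-75562252, plus strand): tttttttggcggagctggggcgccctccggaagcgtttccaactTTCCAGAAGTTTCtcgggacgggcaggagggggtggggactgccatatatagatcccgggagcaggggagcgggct
In DNAJB1 the pairs began 77 and 47 bases before the start, in HSPA1A 106, in HSP90AA1 88, in SERPINH1 76 and in CHORDC1 60. SERPINH1 encodes HSP47, the collagen-specific chaperone of the endoplasmic reticulum; it was at 10702 and 11057 in the control libraries and 15966 and 18687 with celastrol (log2 fold change 0.67, SE 0.10, adjusted p = 0.000496), while COL1A1 and COL1A2, whose chains it helps to fold, were not called.

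In the other arms of protein quality control the differences were smaller. Of 25 genes for folding and secretion in the endoplasmic reticulum, 5 rose and 7 fell, with a median of -0.08. The stress sensors ERN1 (IRE1) and EIF2AK3 (PERK) rose by 1.68 and 0.81, HERPUD1 by 0.68, XBP1 by 0.42 and HSPA5, the lumenal HSP70, by 0.40 from 17806 and 17650.5 to 22553 and 24216. DNAJB11, a co-chaperone of HSPA5, and MANF, a secreted survival factor, fell by 0.43 and 0.42. With median centring 18 of these 25 were lower, and 13 with a common total; without control replicate 1 the count was 4. Of 34 proteasome genes 3 rose and 4 fell, with a median of -0.04 and no change beyond that of the activator subunit PSME4, a rise of 0.50; median centring gave 20 lower, a common total 10 and the absence of control replicate 1 gave 2, while centring on well-expressed genes gave 7 higher and a median of 0.04.

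Ubiquitin and autophagy genes rose more often than they fell, while the receptor SQSTM1 did not pass. Of 26 ubiquitin and autophagy genes, 13 rose and 3 fell (6 with a common total, 7 with median centring), with a median of 0.20. The polyubiquitin gene UBB was at 8798 and 9029.8 in the control libraries and 14903 and 16554 with celastrol (log2 fold change 0.82, SE 0.07, adjusted p = 2.04e-05). ZFAND2A (AIRAP), an arsenite-inducible zinc finger protein that binds the proteasome, rose from 145 and 166 to 2218 and 2244. MAP1LC3B and GABARAPL1, which coat autophagosomes, rose by 0.90 and 0.92, and TFEB, a regulator of lysosome genes, by 1.10. SQSTM1, the receptor p62, was at 8762 and 8994 in control and 9979 and 10589.7 with celastrol (0.21, adjusted p = 0.0514); it passed with a pseudocount of 5, a stricter filter on low values, centring on well-expressed genes (0.29), only the 4 libraries, and without either TGFB library.

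Individual NRF2 targets rose, at a share near that of all genes. HMOX1, which degrades heme, was at 380.2 and 415 in the control libraries and 23202 and 24815 with celastrol (log2 fold change 5.91, SE 0.13, adjusted p = 3.21e-08). NFE2L2, which encodes NRF2, rose from 3153 and 3191 to 6455 and 6234. The glutathione synthesis genes GCLM and GCLC rose by 1.18 and 0.56, the cystine transporter SLC7A11 by 0.71, TXNRD1 by 0.59, SRXN1 by 0.65 and OSGIN1 by 1.03. In all 12 of 29 rose (41.4%, against 33.8% of all genes tested) and 0 fell (21.3% of all genes tested), with a median of 0.11 (-0.06 with median centring), and 17 did not pass. NQO1, widely used as an NRF2 reporter, was at 13391 and 18056 in control and 13682 and 18295 with celastrol (0.03, adjusted p = 0.935); in both groups library 2 was the higher, and the groups overlap.

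Genes of ATF4 and the integrated stress response rose broadly, 22 of 27 with 0 falls and a median of 1.01. PPP1R15A (GADD34), which returns eIF2α to its active form, was at 1818 and 1870.2 in the control libraries and 17601 and 19404 with celastrol (log2 fold change 3.32, SE 0.06, adjusted p = 1.69e-08). ATF3 rose from 71.3 and 71.4 to 2319 and 2259, and TRIB3, CTH, DDIT4, CHAC1, SESN2 and DDIT3 rose by 2.57, 2.35, 2.20, 1.86, 1.58 and 1.54. ATF4, which is controlled largely by translation, rose by 0.73. Asparagine synthetase, ASNS, a classic target, rose by 0.51, a call lost without control replicate 1 (0.33), without celastrol replicate 2 (0.36), with a common total, with median centring and without a variance trend. The serine synthesis genes PSAT1 and SHMT2 rose by 0.90 and 0.64. VEGFA, the vascular growth factor and a target of several stress pathways, rose from 867 and 886 to 5054 and 5209.

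Aminoacyl-tRNA synthetases, which charge tRNAs and include ATF4 targets, divided into 11 that rose, 6 that fell and 4 that did not pass, with a median of 0.23; median centring gave 8 higher and 10 lower. CARS1 was at 1996 and 2034 in the control libraries and 3724 and 3737 with celastrol, TARS1 at 4549.9 and 4691 in the control libraries and 8009 and 8422 with celastrol and YARS1 at 3712 and 4052 in the control libraries and 6358 and 6588 with celastrol, rises of 0.89, 0.83 and 0.74. HARS1, by contrast, fell by 0.71, from 2519 and 2495 to 1457 and 1619, and FARSB, a subunit of the phenylalanine enzyme, by 0.47. The CEBP-ATF element TGATGNAA was found in 2.25% of all windows, in 389 of the 12721 genes with a window. It was found in 7 of the 17 synthetase genes with a window, and all 7 were among the 10 risers with a window. In the list of ATF4 targets and integrated stress response genes it was found in 8 of 23 genes with a window and in 6 of the 19 risers among them, so that 2 of the 4 genes that did not rise held it. The bases around the matches in the synthetases are shown because each of these genes rose, with the element in capitals on either strand and 10 bases on each side.
AARS1 (chr16:70289676-70289703, minus strand): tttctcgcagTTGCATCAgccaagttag
CARS1 (chr11:3057408-3057435, minus strand): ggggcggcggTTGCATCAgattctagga
IARS1 (chr9:92293693-92293720, minus strand): tttcagcgcgTTGCATCAcctccgtgcg
MARS1 (chr12:57488054-57488081, plus strand): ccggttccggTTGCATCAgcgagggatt
GARS1 (chr7:30594835-30594862, plus strand): tacgcggcgaTTTCATCAtgctccgagc
TARS1 (chr5:33440957-33440984, plus strand): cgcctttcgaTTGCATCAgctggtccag
NARS1 (chr18:57621805-57621832, minus strand): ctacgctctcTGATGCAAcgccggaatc
The rises of GARS1 (0.27) and NARS1 (0.23) were not called with median centring, nor that of GARS1 without celastrol replicate 2 (0.23). Of the risers with a window, 3 held no match, which says only that these letters are not in those windows.

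Immediate early genes rose with 1 exception: 24 of 25 rose and 0 fell, with a median of 2.76, at a time point 6 h after treatment; the 17 at 50 or more in both groups had 16 rises and a median of 1.83. EGR1, a zinc finger factor, was at 612 and 493 in the control libraries and 10564 and 9823 with celastrol (log2 fold change 4.21, SE 0.11, adjusted p = 8.8e-08), and NR4A1, an orphan nuclear receptor, at 190.1 and 175 in the control libraries and 9391 and 9735 with celastrol (log2 fold change 5.70, SE 0.09, adjusted p = 1.03e-08). FOS was at 36.3 and 22.8 in the control libraries and 3808 and 3495 with celastrol, FOSB at 17.5 and 16.8 in the control libraries and 3723 and 3381 with celastrol, EGR3 at 25 and 18 in the control libraries and 4418 and 3974 with celastrol and ARC at 6.25 and 6.6 in the control libraries and 1091 and 1501 with celastrol; all were under 50 in control and above 1000 in both celastrol libraries. EGR4 was listed at 0 in both control libraries and at 84.3 and 50.9 with celastrol. Among genes already well expressed, JUNB rose by 3.46, MYC by 1.68, MCL1 by 1.16 and IER3 by 2.24. JUN, the usual partner of FOS, was the exception, at 2015 and 2015 in control and 1857 and 1906 with celastrol (-0.10, adjusted p = 0.401); median centring called it lower (-0.27). FOSL2, a relative of FOS, rose by 0.36.

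Feedback inhibitors of MAP kinases also rose: 16 of 17 rose and 1 fell, with a median of 1.18. The dual specificity phosphatase DUSP1 was at 1609.6 and 1271 in the control libraries and 9240.0 and 8889 with celastrol (log2 fold change 2.66, SE 0.10, adjusted p = 3.98e-07), DUSP5 rose by 2.82 and DUSP10 by 2.06, and SPRY2, a Sprouty inhibitor of receptor signalling, by 2.56; DUSP7 fell by 0.36. Of 14 Kruppel-like factors 11 rose and 0 fell (2 with median centring), led by KLF10 (3.24), KLF4 (3.17) and KLF5 (2.99); KLF5 went from 600.3 and 629 to 4821 and 4945. Clock genes also shifted, 14 of 19 higher and 3 lower, with a median of 1.49. BHLHE40, a repressor of the clock, was at 629 and 550.0 in the control libraries and 7293 and 7604 with celastrol, NR1D1 (REV-ERBα) at 42.5 and 35.4 in the control libraries and 1088 and 1183 with celastrol, and PER1, PER2, PER3 and CRY1 rose by 1.89, 1.12, 1.41 and 1.49. NPAS2, a positive factor related to CLOCK, fell by 0.47, from 1283 and 1281 to 895 and 958.

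**Figure D3:**
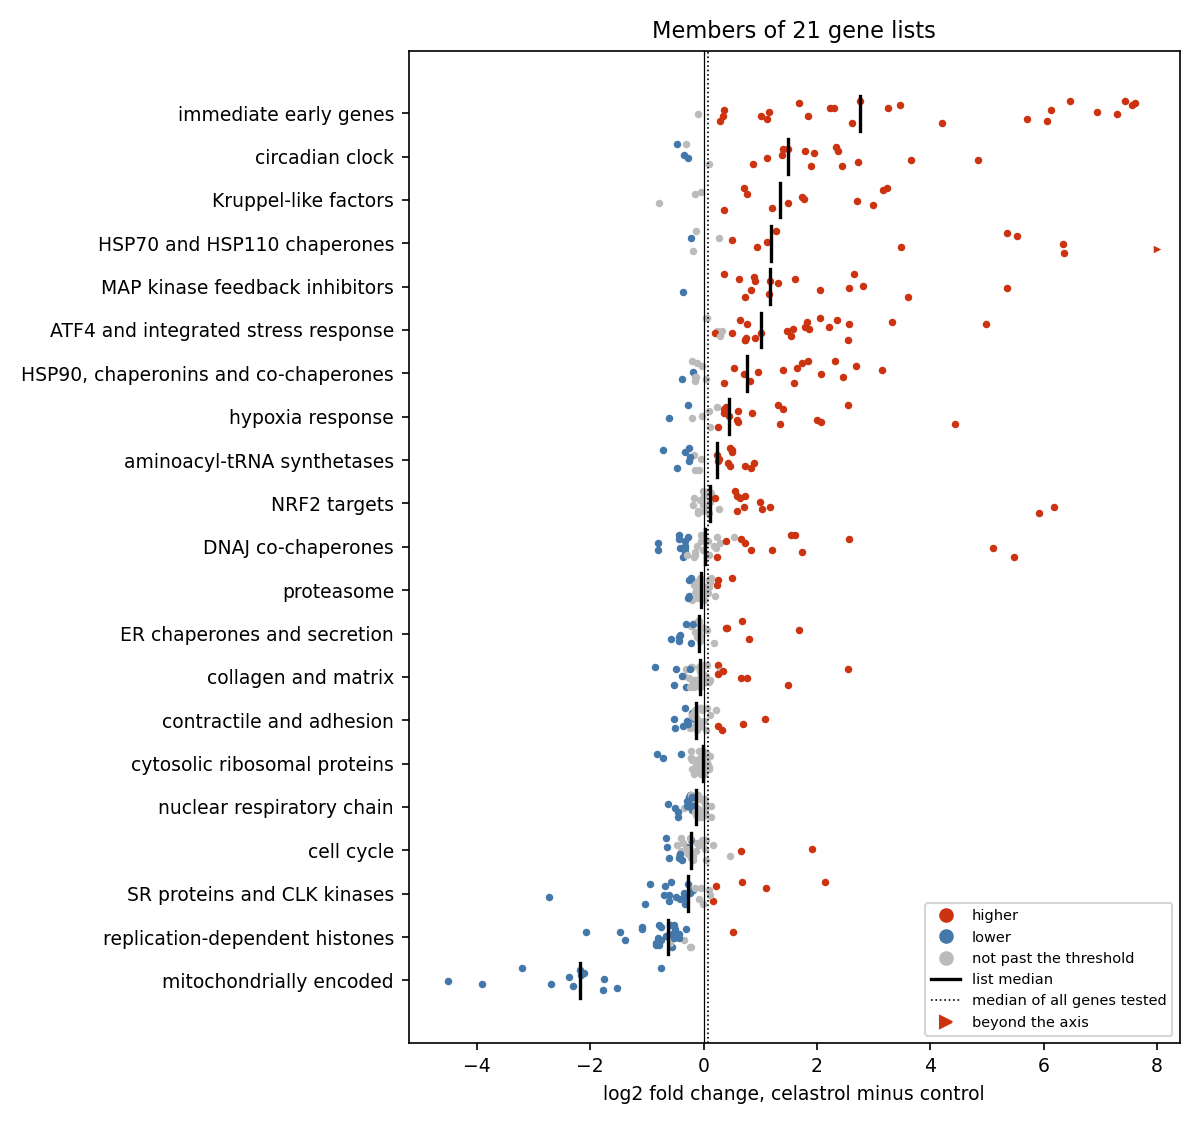
Log2 fold change with celastrol for the members of 21 gene lists, each point a gene, red where called higher, blue where called lower and grey where not past the threshold, with a black bar at each list's median and a dotted line at the median of all genes tested (0.08). Medians run from 2.76 for immediate early genes to -2.19 for mitochondrially encoded mRNAs; HSPA6 lies beyond the axis.

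Signals that fibroblasts send out changed with the stress genes. Of 35 secreted cytokines and growth factors 27 rose and 2 fell, with a median of 1.87 (1.20 with a pseudocount of 5, 1.23 with a stricter filter on low values or without control replicate 1), and 18 of the 24 at 50 or more in both groups rose, with a median of 1.09. HBEGF, an EGF receptor ligand, was at 343 and 349.7 in the control libraries and 1549.8 and 1909 with celastrol (log2 fold change 2.31, SE 0.12, adjusted p = 2.19e-06), and EREG, of the same family, rose by 2.22. INHBA, the activin A subunit, was at 1931 and 1603 in the control libraries and 7392 and 7858 with celastrol, BMP4 at 364 and 354 in the control libraries and 1665 and 1835 with celastrol, and CXCL8 (interleukin 8) at 103 and 103 in the control libraries and 413 and 446 with celastrol. IL11, LIF and IL6, cytokines that signal through gp130, rose by 1.14, 1.22 and 1.03. CCL2, the monocyte attractant, fell by 1.59, from 793 and 849 to 233 and 319. Of 30 receptors 12 rose and 1 fell, where 33.8% of all genes tested were higher and 21.3% lower. The receptor median was 0.12 (-0.05 and 8 lower with median centring). IL6R rose from 166 and 148 to 663 and 648 and PDGFRA by 0.76. The 1 receptor that fell was ERBB2, by 0.33, a call lost without control replicate 2 (-0.26), without celastrol replicate 1 (-0.30) or 2 (-0.37) and without a variance trend. EGFR, the receptor of HBEGF and EREG, was at 7473 and 7969 in control and 7471 and 7948 with celastrol and was called lower only with median centring.

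NF-kB genes went both ways. Of all genes tested 33.8% were higher and 21.3% lower, the shares to set beside each list in this paragraph. Of 27 measured, 11 rose and 9 fell, with a median of 0.05 (-0.03 with a common total, -0.12 with median centring and -0.01 without control replicate 2). NFKBIA, the inhibitor whose mRNA is itself an NF-kB target, was at 939 and 876 in the control libraries and 585 and 515 with celastrol (log2 fold change -0.72, SE 0.10, adjusted p = 0.000448), and NFKB2, the p52 precursor, and the kinase IKBKB fell by 0.52 and 0.44. PTGS2 (COX-2) rose from 2949 and 2476 to 6813 and 7321, NFKBIZ by 2.04 and TNFAIP3 by 0.96. Without control replicate 1, 9 rose and 5 fell. Of 26 interferon response genes 11 rose and 1 fell (3 with median centring), with a median of 0.40 (0.23 with median centring), but 4 rose without celastrol replicate 1 and 7 without celastrol replicate 2 or control replicate 2; IRF1 rose from 391 and 427 to 676 and 583. Of 12 metallothionein and zinc transporter genes 6 rose and 4 fell, and 2 fell without control replicate 1, without celastrol replicate 1 or with centring on well-expressed genes. Metallothioneins bind zinc and are induced by free metal; MT2A fell from 854 and 852 to 443 and 461 (-0.91) and MT1E by 0.61. Members of that family are close copies, so their reads are uncertain.

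Several feedback inhibitors of TGFB signalling rose in cells that had received no TGFB1. SMAD7, the inhibitory SMAD, was at 1234 and 847 in the control libraries and 3703 and 3832 with celastrol (log2 fold change 1.88, SE 0.14, adjusted p = 1.45e-05), SKIL rose by 1.19, TGIF1 by 1.57, SMURF1 by 0.71 and BAMBI by 2.19, and the ligand TGFB2 from 586 and 532 to 1221 and 1314. SMAD4, the common partner of the receptor-activated SMADs, fell by 0.33, from 4061 and 4011 to 3175 and 3232, SMURF2, a ubiquitin ligase of the receptors, by 0.38 and SMAD6, which inhibits BMP signals, by 0.47. Over the whole list the shares were near those of all genes tested (33.8% higher, 21.3% lower): of the 34 pathway genes 13 rose and 8 fell, with a median of 0.00 (-0.08 with a common total, -0.17 and 14 lower with median centring, -0.03 without celastrol replicate 2), and 5 fell without control replicate 1 or without a variance trend. ID1, an early target of BMP signalling, fell by 0.70 while ID2 and ID4 rose by 1.62 and 1.92.

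Most matrix genes were not called. Of 43, 7 rose and 6 fell (30.2%, beside 55.1% of all genes tested), with a median of -0.06 (0.02 with centring on well-expressed genes). COL1A1 was at 153977 and 155723 in control and 114158 and 147928 with celastrol, COL1A2 at 136373 and 143723 and 102557 and 124097, and FN1, fibronectin, at 170587 and 185627 and 139888 and 162306. None of the 3 passed. The control libraries lay above the celastrol libraries in all 3, and 76.4% of genes at 50 or more had groups that do not overlap in one direction or the other. COL8A1, a short-chain collagen, fell by 0.48, and the elastin gene ELN by 0.85 from 1413 and 948 to 543 and 753, a call lost without celastrol replicate 1 (-0.62). HAS3, a hyaluronan synthase, rose from 18.8 and 25.2 to 144 and 121. The count of falls rested on the scaling and on single libraries: 15 with a common total, 23 with median centring (where COL1A1, COL1A2 and FN1 were called lower), 1 without celastrol replicate 1 and 8 without celastrol replicate 2. COL1A2 and FN1 were also lower with a common total, and COL1A2 without either TGFB library. Rises numbered 4 with median centring or without celastrol replicate 2. The list took 5.31% and 5.01% of normalized reads in control and 3.98% and 4.21% with celastrol. CCN2, a matrix-linked growth factor, was at 22618 and 21793 in control and 20523 and 24924 with celastrol, overlapping groups, and CCN1, its paralog, rose by 0.64.

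Contractile and adhesion genes were mostly uncalled, with 4 of 35 higher and 9 lower and a median of -0.13; 3 to 5 were lower without control replicate 1 or either celastrol library, 4 without a variance trend or with centring on well-expressed genes, 16 with a common total, and 23 with median centring, where 2 were higher. TPM1, a tropomyosin, fell from 34816 and 30220.0 to 22085 and 22873 (-0.53) and the focal adhesion protein TNS1 by 0.50. ACTA2, smooth muscle actin, ranged as widely within groups as between them, at 2944 and 1423 in control and 2428 and 1625 with celastrol. Of 22 YAP and TAZ genes 10 rose and 5 fell, with a median of 0.16 (-0.01 with median centring), and 3 fell without control replicate 1, either celastrol library or a variance trend or with centring on well-expressed genes; ANKRD1 rose from 133 and 67.2 to 892 and 953 and the kinase LATS2, which inhibits YAP, by 1.49. Of 29 transcription factors of mesenchymal cells 17 rose and 3 fell (5 with median centring), with a median of 0.56. SNAI1 was at 134 and 78 in the control libraries and 1171 and 1057 with celastrol, SOX9 at 301 and 311 in the control libraries and 1338 and 1325 with celastrol, and FOXO1 and FOXO3 rose by 2.14 and 1.18. Among 26 matrix proteases and their inhibitors 7 rose and 3 fell, with a median of -0.02 (0.06 with centring on well-expressed genes and 0.02 without control replicate 1). Falls numbered 6 with a common total, 9 with median centring, 5 without either TGFB library and 1 without a variance trend, control replicate 1 or celastrol replicate 2, and rises 4 without a variance trend or celastrol replicate 1. MMP10, stromelysin 2, rose from 2.5 and 1.8 to 68.1 and 66.7, ADAM17, which sheds HBEGF, by 0.81, and ADAMTS2, which trims procollagen, fell by 0.64. MMP1, interstitial collagenase, was at 3554 and 5827 in control and 3661 and 4354 with celastrol, not past the threshold.

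Hypoxia genes rose in 16 of 23 cases and fell in 2, with a median of 0.46 (0.29 with median centring). SLC2A3, a glucose transporter, was at 2169.7 and 2156 in the control libraries and 9044 and 9140.3 with celastrol, PFKFB3 at 1207 and 1198 in the control libraries and 3401 and 2988 with celastrol, and ADM and HIF1A rose by 1.32 and 0.41. LDHA fell by 0.27, PDK1 by 0.62, and of 17 glycolysis genes 3 rose and 3 fell, with a median of -0.04 (0.04 with centring on well-expressed genes). Neither count was stable: 1 rose without control replicate 1, celastrol replicate 2, either TGFB with celastrol library, a variance trend, or with a common total or median centring, and falls ranged from 1, without control replicate 1, celastrol replicate 1 or either TGFB with celastrol library, to 10 with median centring. Of 29 genes of sterol and fatty acid synthesis 14 rose and 0 fell (4 with a common total, 8 with median centring), with a median of 0.19, and 9 rose without celastrol replicate 1. INSIG1, which restrains sterol synthesis, was at 5435 and 5323 in the control libraries and 10434 and 9616 with celastrol, and SQLE, squalene epoxidase, rose by 0.57. Lysosome genes had 11 of 25 higher and 0 lower, with a median of 0.17 (just under 0 with median centring, where 5 rose and 5 fell; 2 fell with a common total), and 6 or 7 rose without a variance trend, without control replicate 2 or without either celastrol library.

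Growth arrest genes rose more often than they fell, and cell cycle genes fell about as often as other well-expressed genes. GADD45A and GADD45B, stress sensors, were at 737 and 745 in the control libraries and 2461 and 2517 with celastrol and at 749 and 723 in the control libraries and 4665 and 5321 with celastrol. Of 26 growth arrest and damage response genes 14 rose and 3 fell, with a median of 0.34 (0.16 with median centring), and 0 fell without control replicate 1, celastrol replicate 2 or a variance trend or with centring on well-expressed genes. CDKN1A (p21), an inhibitor of cyclin-dependent kinases, rose by 0.34 from 5404 and 5017 to 6641 and 6568. CCND1, cyclin D1, fell by 0.61, from 25827 and 23316 to 16580.1 and 15556, and the helicase subunits MCM3 and MCM6 by 0.66 and 0.39. Of 32 cell cycle genes 2 rose and 9 fell, with a median of -0.23; of the 31 at 50 or more in both groups 1 rose and 9 fell, where 29.5% of all genes at that level fell. In the whole list 18 fell without celastrol replicate 1, 4 without celastrol replicate 2, 5 without control replicate 1 or a variance trend, and 19 with median centring. MKI67, a marker of cycling cells, was at 8751 and 8477 in control and 8192 and 5473 with celastrol; it was not called, but was with median centring and without celastrol replicate 1 (-0.65). Among BCL2 family and apoptosis genes, 8 of 25 rose and 3 fell, with a median of 0.08 (just under 0 with a common total, -0.09 and 8 lower with median centring). The proapoptotic BCL2L11 (BIM) was at 88.8 and 83.4 in the control libraries and 717 and 626 with celastrol and PMAIP1 (NOXA) at 445 and 440.3 in the control libraries and 1507 and 1304 with celastrol, and the antiapoptotic BCL2 rose by 1.39; BIRC2 fell by 0.54.

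All 13 mRNAs encoded by the mitochondrial genome fell, with a median of -2.19 and the same 13 calls under each of the 3 other scalings. Their summed share went from 0.603% and 0.607% of normalized reads in control to 0.130% and 0.123% with celastrol. MT-CO3, a subunit of cytochrome oxidase, was at 11604 and 12749 in the control libraries and 529 and 537 with celastrol (log2 fold change -4.51, SE 0.13, adjusted p = 1.52e-07), and its neighbour MT-ATP6 at 8777 and 8097 in the control libraries and 979.6 and 859.8 with celastrol. MT-CO1 was at 93757 and 93041 in the control libraries and 20262 and 21517 with celastrol and MT-CO2 at 4717 and 4646 in the control libraries and 1513 and 1229 with celastrol, so that the 3 cytochrome oxidase subunits fell by 2.16, 1.78 and 4.51. MT-ND6, the only protein gene on the light strand, fell by 3.91, and MT-ND5 by 0.76, the smallest change of the 13, a call lost without control replicate 1 (-0.75) or 2 (-0.77), without celastrol replicate 2 (-0.56) and without a variance trend. In each of the 13 both celastrol libraries lay below both controls; 78.3% of all genes tested, and 76.4% of those at 50 or more, had groups that do not overlap in one direction or the other. MT-CO3 and MT-ATP6, MT-ATP6 and MT-ATP8, and MT-ND4 and MT-ND4L overlap by some bases, and copies of mitochondrial genes in the nuclear genome can take reads, so single values are uncertain.

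**Figure D4:**
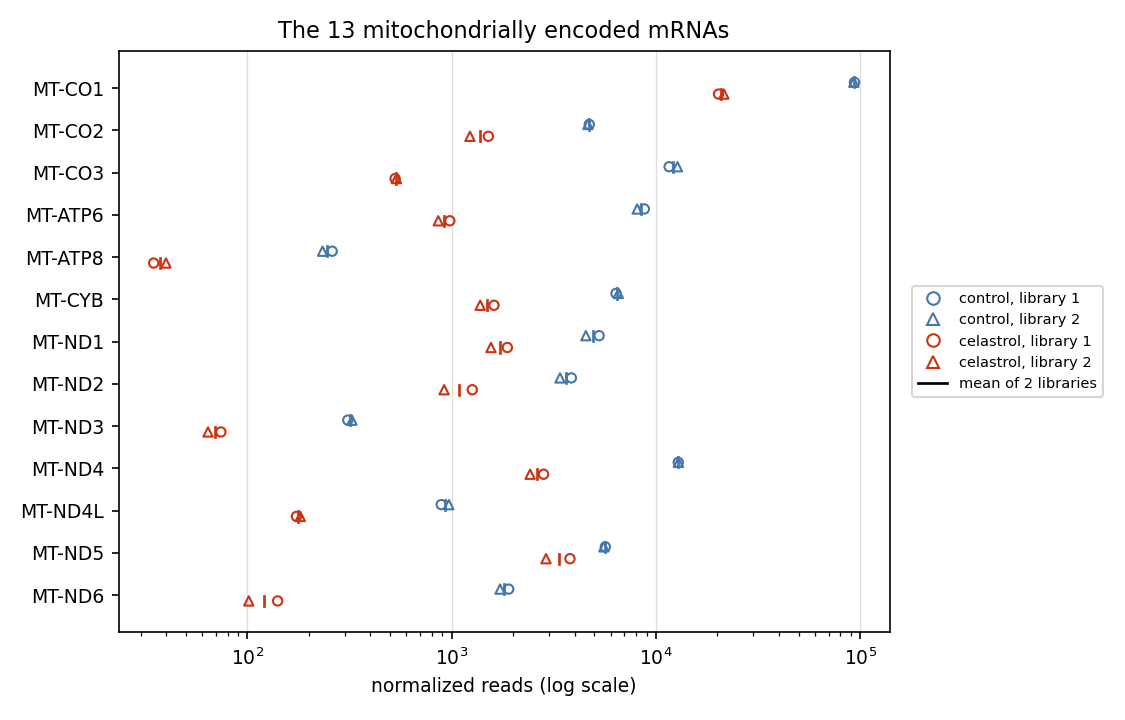
Normalized reads (log scale) of the 13 mitochondrially encoded mRNAs in each of the 4 libraries, control in blue and celastrol in red, with circles for library 1, triangles for library 2 and a bar at the mean of 2 libraries. Celastrol libraries lie left of both controls for every gene, with the widest gap for MT-CO3 and the narrowest for MT-ND5.

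The 2 lists of nuclear genes for mitochondria had medians closer to 0 than that of the 13 mitochondrial mRNAs. Of 43 nuclear-encoded respiratory chain subunits 0 rose and 14 fell (32.6%), with a median of -0.14, where 29.5% of all genes at 50 or more in both groups fell and 21.0% rose; 6 to 8 fell without any 1 of the 4 control and celastrol libraries or without a variance trend, 7 with centring on well-expressed genes, 22 with a common total and 29 with median centring. NDUFA9, of complex I, had the largest fall of them (-0.63). Of 25 genes of mitochondrial import, proteases and transcription 6 rose and 13 fell, beside 33.8% and 21.3% of all genes tested. Their median was -0.25, with single changes from -1.01 to 3.67. Genes that maintain or transcribe mitochondrial DNA were lower in part: the polymerase POLG was at 1626 and 1680.1 in the control libraries and 904 and 929 with celastrol (log2 fold change -0.85, SE 0.08, adjusted p = 3.63e-05), the helicase TWNK fell by 1.01, the rRNA methyltransferase TFB1M by 0.79 and the termination factors MTERF1 and MTERF3 by 0.78 and 0.83. TFB2M, the initiation factor, rose from 547 and 495 to 805 and 996, TFAM by 0.40, and POLRMT, the mitochondrial RNA polymerase, was at 503 and 503 in control and 358 and 498 with celastrol (-0.25, adjusted p = 0.247). The protease LONP1 rose by 0.76, and PPARGC1A (PGC-1α), a coactivator of mitochondrial biogenesis, went from 12.5 and 8.4 to 172 and 117.

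Few cytosolic ribosomal protein genes were called, 0 of 52 higher and 3 lower (5.77%, beside 55.1% of all genes tested), with a median of -0.01 (0.07 with centring on well-expressed genes, 0.01 without control replicate 2 and 0.02 without celastrol replicate 1). Median centring gave 24 lower, a common total 8, and the 4 libraries alone or without celastrol replicate 2 gave 5. RPS24 was at 2857 and 2909 in the control libraries and 1468 and 1817 with celastrol (-0.82). Of 28 translation factors 4 rose and 7 fell (14 with a common total, 17 with median centring, 4 with centring on well-expressed genes and 3 without control replicate 1), with EIF5 rising by 0.99, from 6196 and 5564 to 11640.0 and 11739. RNA processing genes moved more. The CLK kinases, which phosphorylate SR splicing factors, parted: CLK1 was at 1719.7 and 1879 in the control libraries and 7383 and 8612 with celastrol (log2 fold change 2.15, SE 0.08, adjusted p = 4.4e-07) and CLK3 rose by 1.10, while CLK2 was at 724 and 669 in the control libraries and 105 and 104 with celastrol (log2 fold change -2.72, SE 0.10, adjusted p = 4.94e-07) and CLK4 fell by 1.03. SR proteins and hnRNPs were mostly lower, and in the whole list 5 of 27 rose and 16 fell, with a median of -0.28; 3 rose with a common total, median centring or no variance trend, or without any 1 of the control, celastrol and TGFB with celastrol libraries. SRSF4, SRSF10, SRSF11 and HNRNPA1 fell by 0.94, 0.70, 0.68 and 0.61, and HNRNPU rose by 0.67. Among 28 genes of transcription elongation and 3′ cleavage 4 rose and 10 fell, with the termination factor PCF11 rising from 2369 and 2493 to 6838 and 7348 and the cleavage factor CSTF1 falling by 0.63; 6 fell without control replicate 1, 5 without control replicate 2 and 19 with median centring, where 2 rose.

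Replication-dependent histone genes, whose mRNAs end in a stem-loop instead of a poly(A) tail, fell in 23 of 28 cases and rose in 1, with a median of -0.62. H4C14 was at 1575 and 1677 in the control libraries and 605 and 644 with celastrol (log2 fold change -1.38, SE 0.08, adjusted p = 3.79e-06), H4C2 at 928 and 1053 in the control libraries and 339 and 374 with celastrol and H1-3 at 1412 and 1288 in the control libraries and 376 and 269 with celastrol. The groups did not overlap for any of these 3, as for 76.4% of all genes at 50 or more in both groups. These genes are near-identical copies and their reads are uncertain. The list took 0.130% and 0.133% of normalized reads in control and 0.0807% and 0.0727% with celastrol. Cell cycle genes, which move with S phase as histone genes do, are given above, and their part in the fall of histone mRNA was not tested.

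Many genes crossed the level of 50. From a mean under 50 in control, 1849 genes reached at least 50 with celastrol, and 1647 of these were called higher; 492 went the other way, and 340 were called lower. The control libraries had 22197 and 22720 genes above 0 and the celastrol libraries 24524 and 24473, though the deepest of the 4 was a control library. Every gene in the table reaches at least 11 estimated reads in 1 library or more, so a gene at 0 in control is listed because it was detected elsewhere, and the direction of such changes is fixed by the selection. The largest such rises were in HSPA6, NEB, XIRP1, C1orf87 and BEND4. Fold changes of such low genes depend on the pseudocount. XIRP1, an actin-binding protein of striated muscle, was at 2.5 and 2.4 in the control libraries and 1214 and 1283 with celastrol (8.50, and 7.39 with a pseudocount of 5). NEB, which encodes nebulin, was at 0 and 1.2 in the control libraries and 734 and 767 with celastrol, but its exons overlap those of RIF1. C1orf87 was listed at 0 in both control libraries and at 325 and 281 with celastrol, and BEND4 at 0 and 0.6 in the control libraries and 383 and 369 with celastrol. The largest falls to under 50 were in CRYGS, ATF7-NPFF, the bitter receptor TAS2R30, FAM215B and the histone gene H2AC7. TAS2R30 went from 210.1 and 181 to 16.2 and 9.69 (-3.85), and CRYGS from 71.3 and 67.2 to 5.41 and 1.21, though its exons overlap TBCCD1; its change was -4.99 without celastrol replicate 1 and -3.45 without celastrol replicate 2. ATF7-NPFF, a readthrough gene, changed by -5.85 and -2.45 in the same 2 settings. The H2AC7 call was lost without any control, TGFB or TGFB with celastrol library (adjusted p from 0.0533 to 0.142), without a variance trend, with only the 4 libraries and with a pseudocount of 0.5, and its change was -6.43 without celastrol replicate 1 and -1.05 without celastrol replicate 2.

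Celastrol was also compared in TGFB1-treated cells, in libraries that the comparison above does not share. Celastrol added to TGFB1 gave 14497 calls of 22866 (63.4%). HSPA1A differed by 6.54 there, HSPA6 by 14.24 (11.01 without TGFB1), DNAJB1 by 5.16, FOS by 6.65, MT-CO3 by -4.48 and CLK2 by -2.72. The interaction tests whether a celastrol difference depends on TGFB1. It was not past the threshold for any of these 6 genes (adjusted p from 0.187 to 0.999), which does not show equal differences. In their lists it passed for 14 of 25 immediate early genes, 5 of 14 HSP70 and HSP110 genes and 7 of 38 DNAJ genes. It passed for 2 of 27 SR protein and CLK kinase genes and for 0 of 13 mitochondrially encoded mRNAs. Of all genes tested, 2573 of 22866 (11.3%) passed, 997 with a higher (4.36%) and 1576 with a lower (6.89%) signed difference under TGFB1. The number rested on single libraries, at 1189 to 1624 without any 1 of the control, celastrol or TGFB with celastrol libraries and 1245 without a variance trend, and its split on the scaling (2474 higher and 801 lower with a common total). The 10 smallest p-values were those of LIF, SEMA7A, IL11, ADAMTS1, FBXO32, JUNB, PMEPA1, ARHGAP28, BHLHE40 and HBEGF. LIF was at 266 and 259.7 in control and 599.8 and 625 with celastrol, and at 9226 and 11612 with TGFB1 and 717 and 709.8 with both, so that LIF was higher with celastrol in one setting and lower in the other. FBXO32, a ubiquitin ligase of muscle atrophy, was at 254 and 284 in control and 2339 and 2526 with celastrol, and at 2578 and 2715 with TGFB1 and 2791 and 2539 with both, higher with celastrol alone and little different once TGFB1 was present. CCN2 was at 143117 and 157853 with TGFB1 and 24485 and 26064 with both, a difference of -2.57 that was not seen without TGFB1 (interaction -2.60, adjusted p = 2.75e-05).

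**Figure D5:**
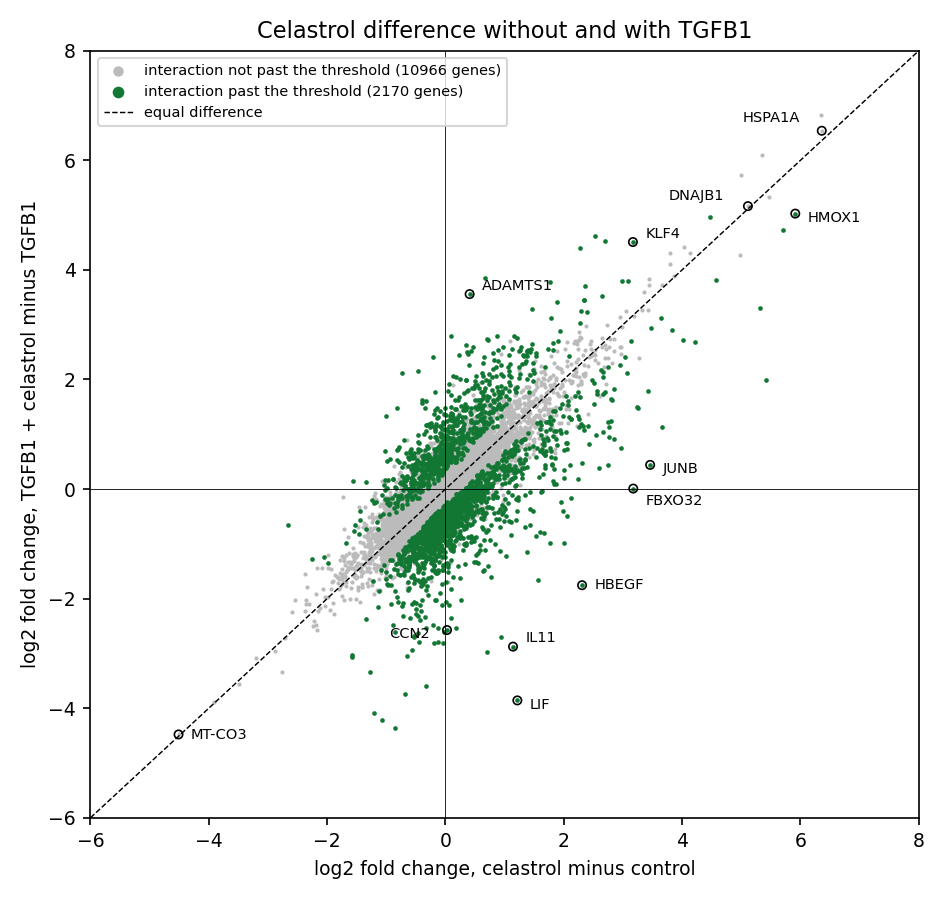
Log2 fold change with celastrol in cells without TGFB1 (horizontal axis) and with TGFB1 (vertical axis) for the 13136 genes with a mean of at least 50 in all 4 groups, each point a gene. The 2170 green points (16.5%) passed the interaction test; HSPA1A, DNAJB1 and MT-CO3 lie near the dashed line of equal difference and LIF, IL11, HBEGF and JUNB lie far below it.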

How the data were processed

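The authors deposited 1 table of normalized values per gene for 8 bulk RNA libraries; the deposited signal is reads per gene divided by 1 size factor per library, as the values show, with 24598 genes. Per the submitters' processing notes, STAR 2.7.3a, Partek 10.0.22 and DESeq2 were used with hg38; no source used here gives their roles, the annotation, the strand setting or filters. TRIzol extraction and a total RNA library kit are named in the labels' protocols. Depth was estimated from the step that 1 read is worth; 66.5% to 72.3% of the values above 0 were whole multiples within 0.02 reads, so no count test was run. A count of 0 allows up to 3 reads, 1.80 to 4.24 normalized reads by library, counting error only.

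The 22866 genes that reached 10 normalized reads in 2 or more libraries were fitted as log2(value + 1) by limma 3.58.1 (R 4.3.3). The fit had a variance trend and 1 mean for each of the 4 groups (4 residual degrees of freedom). It was also run on simulated data in which few genes changed, all at 50 or more in control. That simulation does not cover data in which most genes are called, nor the choice of scaling. Tests were two-sided, with a Benjamini-Hochberg adjusted p threshold of 0.05. The common total gave each library the same sum; median centring used all genes tested, and the third scaling used genes with a mean of at least 50 in every group. Other pseudocounts, filters, variance models and libraries left out were also tried.

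The comparison, the gene lists and the rule for names were chosen with earlier results of these data known. The rule took the 15 largest rises and falls at 50 or more in both groups, 5 each for genes crossing 50, up to 6 members of each list with the smallest p, a list of well-known genes, and the 10 smallest interaction p-values. A few members of these lists are not reported here by name. Of 250 genes named, 66 list members outside that rule were chosen after their values were seen: ARC, ASNS, BAMBI, BIRC2, CCT2, CCT3, CCT4, CHAC1, CLK4, CTH, DNAJC10, DNAJC17, DNAJC5, DUSP7, EGFR, EGR4, ELN, ERBB2, FARSB, FKBP4, FOSL2, FOXO1, GARS1, HIF1A, HNRNPA1, HSPA4, HSPE1, HYOU1, ID1, IER3, IKBKB, MANF, MARS1, MKI67, MMP1, MT-ATP8, MT-CO2, MT-ND5, MTERF1, MTERF3, NARS1, NFKB2, NPAS2, OSGIN1, PDK1, PER1, PER2, PER3, POLRMT, PPARGC1A, PSAT1, SHMT2, SLC7A11, SMAD4, SMAD6, SMURF2, SRSF11, SRXN1, STIP1, STUB1, TCP1, TFAM, TFB2M, TFEB, TRIB3 and TXNRD1.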

Additional observations from a re-analysis of the deposited data

Results flagged for a closer look

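In 2573 genes the celastrol difference depended on TGFB1 by the interaction test of the limma fit at an adjusted p under 0.05, 997 with a higher and 1576 with a lower signed difference when TGFB1 was present. Among the 250 genes named above, 103 did, 92 of them with a lower and 11 with a higher signed difference under TGFB1. Some of the 250 were named for a small interaction p-value and others after their values were seen. Their share and direction therefore do not estimate those of all genes. Of all genes tested 11.3% passed, and with a common total that split was 2474 higher and 801 lower. Of the 103, 43 were not called without a variance trend, 28 with a common total, 11 with centring on well-expressed genes and 38 without at least 1 of the 8 libraries (12 to 36 for any 1 library); 60 were called under every alternative tried, and the 43 that were not were AHSA1, BAG3, BCL2L11, CCN1, CCT2, CCT4, CDRT1, CHORDC1, COL1A1, CRY1, CTH, DNAJA1, DUSP1, EIF5, FOXO3, GSTO2, HARS1, HMOX1, HSP90AB1, HSPA4, HSPA9, HSPB8, HSPD1, HSPH1, HYOU1, ID1, INSIG1, KLF4, LONP1, MT1E, NAIP, NFE2L2, NFKBIA, NFKBIZ, SLC2A3, SMAD7, SNAI1, SQLE, SRXN1, TARS1, TCP1, TNFAIP3 and XBP1. The values below are the interaction on the log2 scale, the celastrol difference with TGFB1 minus that without.

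Genes of growth factor, cytokine and TGFB signalling with a lower signed difference were LIF (-5.07), HBEGF (-4.06), IL11 (-4.02), PMEPA1 (-3.63), SEMA7A (-3.27), PTGS2 (-2.54), CSF1R (-2.28), INHBA (-2.27), IL6 (-2.26), VEGFA (-1.56), CCL2 (-1.44), CXCL8 (-1.22), TGFB2 (-1.12), SKIL (-1.11), SMAD7 (-1.07), SMURF1 (-1.03), SMURF2 (-0.86) and EGFR (-0.74). Matrix, contractile and YAP target genes with a lower signed difference were ELN (-3.51), CCN2 (-2.60), XIRP1 (-2.45), TNS1 (-1.79), FN1 (-1.36), TPM1 (-1.18), ADAMTS2 (-1.07), COL1A1 (-0.86), COL8A1 (-0.78) and CCN1 (-0.66). Immediate early genes, MAP kinase inhibitors and other regulators of transcription and signalling with a lower signed difference were SIK1B (-3.42), JUNB (-3.02), BHLHE40 (-2.52), FOSB (-2.23), IER3 (-2.06), GEM (-2.01), EGR3 (-2.003), GADD45B (-1.81), KLF10 (-1.75), SNAI1 (-1.63), EGR1 (-1.53), TRIB1 (-1.30), DUSP5 (-1.20), MYC (-1.05), HIF1A (-1.03), NR4A1 (-0.97), MCL1 (-0.87), DUSP7 (-0.85), SPRY2 (-0.83), SOX9 (-0.83), CCND1 (-0.75), CRY1 (-0.70), DUSP1 (-0.53) and FOXO3 (-0.41). Chaperones and genes of protein quality control with a lower signed difference were FBXO32 (-3.17), ERN1 (-1.30), ZFAND2A (-0.94), HERPUD1 (-0.89), HSPA5 (-0.70), EIF2AK3 (-0.70), PSME4 (-0.69), BAG3 (-0.63), HYOU1 (-0.63), HSPB8 (-0.60), XBP1 (-0.56), HSPH1 (-0.55), LONP1 (-0.52), HSPD1 (-0.48), CHORDC1 (-0.45), DNAJA1 (-0.45), AHSA1 (-0.43), HSPA9 (-0.41), HSPA4 (-0.40), HSP90AB1 (-0.38), TCP1 (-0.36), CCT2 (-0.29) and CCT4 (-0.28). Antioxidant, metabolic, NF-kB and other stress genes with a lower signed difference were MT2A (-1.19), NFKBIZ (-1.005), HMOX1 (-0.89), GCLM (-0.83), SRXN1 (-0.77), GCLC (-0.76), MT1E (-0.76), GSTO2 (-0.75), BCL2L11 (-0.69), TARS1 (-0.58), SLC2A3 (-0.54), HARS1 (-0.43), SQLE (-0.43), TNFAIP3 (-0.43), EIF5 (-0.42), INSIG1 (-0.42) and NFE2L2 (-0.35). The 11 genes with a higher signed difference under TGFB1 were ARHGAP28 (3.19), ADAMTS1 (3.15), SMAD6 (2.61), BMP4 (2.12), KLF4 (1.34), ID1 (1.19), ADM (1.11), CTH (1.11), NAIP (0.82), NFKBIA (0.72) and CDRT1 (0.50).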

How the results depend on the processing

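The counts for celastrol against control kept within 1.5 times of their main value under the alternatives tried, except for 4619 rises with only genes of at least 50 in at least 2 libraries, 7470 falls with median centring and, at 50 or more in both groups, 6413 falls with median centring. Celastrol with TGFB1 gave 4990 rises with that filter and 9094 falls with median centring. The interaction gave 2474 higher and 801 lower with a common total, 2748 lower with median centring, and 1245 in all (577 higher, 668 lower) without a variance trend. The filter tests fewer genes and each scaling shifts all genes of a library alike; the cause of the change without a variance trend was not tested.

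With 1 library left out, celastrol against control had 10051 to 13222 calls, 6476 to 8092 higher and 3359 to 5131 lower, and at 50 or more 5194 to 7167, 2315 to 2973 higher and 2750 to 4194 lower. Celastrol with TGFB1 had 12172 to 14214, and the interaction 1189 (without TGFB with celastrol replicate 2) to 2715 (without TGFB replicate 1), 376 to 1162 higher and 813 to 1553 lower; the lone library left in a group is assumed to vary like the others.

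Named genes that changed sign did so around 0 and were not called: CCN2 with a common total (-0.053) and median centring (-0.144), NQO1 (-0.055 and -0.146) in the same settings, and ACTA2 (0.040) and EGFR (0.081) with centring on well-expressed genes. With 1 library left out their values ranged from -0.567 to 0.481 for ACTA2, -0.113 to 0.167 for CCN2, -0.048 to 0.044 for EGFR, -0.545 to 0.168 for MMP1 and -0.191 to 0.241 for NQO1.

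The labels' titles number the libraries of each group 1 and 2 without saying what a number shares, and the second celastrol library has another number in its source name. Same-numbered libraries' deviations from their group means correlated at r = 0.0499 to 0.0815 over all genes tested and at 0.2435 to 0.3236 over genes with a mean of at least 50 in all 4 groups. With 2 libraries a group these correlations cannot settle a pairing that the labels do not state, so the numbers were not taken as pairs. A replicate block gave 13548 calls, 8142 higher and 5406 lower, and 3665 for the interaction; it called HSF1, COL1A1, COL1A2, FN1, SQSTM1 and MKI67.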

Other observations

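Gene class and gene structure are given as values with no test. Among all genes tested, 51.2% of 4449 long noncoding RNA genes were called higher and 13.6% lower, and 29.9% of 14866 protein-coding genes were higher and 25.3% lower. Among genes at 50 or more in both groups the difference between the classes was smaller: 27.8% of 769 long noncoding RNA genes were higher and 27.7% lower, and 21.1% of 11669 protein-coding genes were higher and 31.1% lower. Protein-coding genes at 50 or more in both groups had a median of 11 exon blocks and a span of 35152 bases; those called higher had 12 blocks and 48546 bases, and those called lower 12 blocks and 34227 bases. The genes with large changes were shorter in both directions: those that rose at least 4-fold had 7 blocks and 28201 bases, and those that fell at least 2-fold had 9 blocks and 24757 bases.

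Of the 1647 genes that rose from under 50 to at least 50, 39.5% overlapped the span of a well-expressed gene, and of 3429 genes under 50 in control that were not called 48.9% did. Among genes without such an overlap, 102 of the first set and 187 of the second started within 5000 bases downstream of a well-expressed gene's end on the same strand. These were 6.2% and 5.5% of the whole sets. The sets differ in how many genes lack an overlap, so these shares do not compare the genes without one.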
